A study of Mus musculus with 2 samples.

Results

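Astrocytes that carried transcripts of Agt, the gene of the secreted hormone precursor angiotensinogen, were described in single-cell RNA libraries of brain tissue (label: substantia nigra) from control mice and from mice given maneb and paraquat. A barcode was counted as an Agt astrocyte when it had at least 200 genes, at most 20% mitochondrially encoded transcripts, at least 1000 unique molecular identifiers (UMIs, each counted as 1 captured transcript) and at least 2 Agt UMIs. Its UMIs of 10 astrocyte genes (Aldoc, Slc1a2, Slc1a3, Clu, Gja1, Ntsr2, Acsbg1, Aqp4, Gjb6 and Slc4a4) also had to reach 1% of its total and to exceed those of 7 genes of neurons, microglia, endothelium and oligodendrocytes (Snap25, Syt1, Chgb, Ctss, C1qb, Cldn5 and Mag). This rule took 108 of 2070 barcodes, 80 in the control library and 28 in the library of treated mice. The rule used Agt, the astrocyte genes and depth, so levels of these genes and the counts of members are descriptions. Barcodes that met the same rule apart from Agt are called deep astrocytes below. They numbered 133 in the control and 111 in the treated library, of which 36 and 64 had 0 Agt UMIs.

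There were 2 droplet libraries, 1 per group, made from C57BL/6 mice whose age label is 10 weeks. Mice of the group labelled MNPQ were injected with paraquat (10 mg/kg) followed by maneb (30 mg/kg), 2 times a week for 3 weeks, a regimen used to model Parkinson's disease. Control mice are labelled untreated, while the protocol describes saline injections on the same schedule. The sex label names both sexes, while the protocol describes 3 males taken per group. Tissue was punched from a 1 mm slice thought to hold the substantia nigra pars compacta, treated with 2 mg/ml papain for 30 minutes and triturated for 35 minutes. No label assigns a cell to a mouse. A group therefore had no replicates, and every difference given here is between 2 libraries, in which treatment, mice and dissection cannot be told apart.

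Astrocytes are glial cells that clear glutamate and GABA from synapses, buffer potassium, move water along vessel-facing endfeet and supply neurons with metabolites. In the brain they are the main source of angiotensinogen, from which renin and angiotensin-converting enzyme release angiotensin peptides. Astrocytes also differ by region: those of the cortex and hippocampus express forebrain genes such as Lhx2, while those of the thalamus, hypothalamus, midbrain and hindbrain express more Agt, Itih3, Sparc and the GABA transporter gene Slc6a11.

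Agt (ENSMUSG00000031980) lies on chromosome 8 of the mm10 genome, from 124556534 to 124569706 on the minus strand, in the GENCODE M21 annotation. Itih3, which encodes a heavy chain of the inter-alpha-trypsin inhibitor family, lies on chromosome 14 (30908572 to 30923760, minus strand). Nkx6-2, a homeodomain transcription factor gene, lies on chromosome 7 (139579376 to 139582797, minus strand). Every Agt astrocyte has Agt by the rule. The other 2 promoters are shown because Itih3 was found in 70 of 80 control and 20 of 28 treated Agt astrocytes, and Nkx6-2 in 37 and 17. The 250 bases before each start site are from RefSeq on GRCm38.p6, written 5′ to 3′ on the strand of the gene, with a TATA box (TATAAA) in capitals. The Itih3 start in RefSeq lies downstream of the GENCODE one.

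Agt, chr8:124569707-124569956, minus strand: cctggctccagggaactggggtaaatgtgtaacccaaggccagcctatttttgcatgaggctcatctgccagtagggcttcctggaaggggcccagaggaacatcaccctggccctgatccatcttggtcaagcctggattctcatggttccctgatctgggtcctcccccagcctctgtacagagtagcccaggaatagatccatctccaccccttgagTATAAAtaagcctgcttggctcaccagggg

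Itih3, chr14:30923588-30923837, minus strand: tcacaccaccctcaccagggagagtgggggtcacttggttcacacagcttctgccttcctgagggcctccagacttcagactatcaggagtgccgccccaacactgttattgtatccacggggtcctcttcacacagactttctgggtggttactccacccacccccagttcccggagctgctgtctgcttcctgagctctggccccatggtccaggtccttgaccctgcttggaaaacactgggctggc

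Nkx6-2, chr7:139582798-139583047, minus strand: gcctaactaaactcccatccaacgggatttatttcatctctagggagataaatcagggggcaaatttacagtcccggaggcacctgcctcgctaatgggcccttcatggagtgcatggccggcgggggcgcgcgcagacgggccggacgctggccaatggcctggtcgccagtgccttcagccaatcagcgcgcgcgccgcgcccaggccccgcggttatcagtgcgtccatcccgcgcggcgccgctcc

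A TATA box was found 30 bases before the Agt start site, and neither of the other promoters held those letters on either strand. TATAAA was present in 12.37% of 32851 RefSeq promoter windows of this length, searched on both strands. The homeodomain core TAATTA, present in 4.84% of the windows, and the glucocorticoid receptor half-site TGTTCT, present in 16.08%, were not found in these 3 windows. Such matches describe letters only.

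After the filters on genes and mitochondrial share, 882 of 1105 control barcodes and 854 of 965 MNPQ barcodes were kept. The libraries shared 2 barcode sequences, of which 1 was an Agt astrocyte of the control library. Agt astrocytes held 269894 UMIs in control and 152578 in MNPQ cells. Their median depth was 2708.5 UMIs and 1268 genes per barcode in the control against 4072 UMIs and 1805.5 genes in the MNPQ library, and their median mitochondrial share was 6.75% and 4.96%. Markers of the labelled tissue were almost absent: the dopaminergic genes Th and Slc6a3 had 1 UMI each in all control barcodes and 0 in all MNPQ barcodes, and the midbrain transcription factor genes En1 and En2 had 0 in both.

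Agt astrocytes were more common in the control library than in the MNPQ library, both among all kept barcodes and among deep astrocytes. They made up 60.2% of deep astrocytes in the control library (exact Clopper-Pearson 95% interval 51.3 to 68.5) and 25.2% in the MNPQ library (17.5 to 34.4). Of all kept barcodes they made up 9.07% (7.26 to 11.2) and 3.28% (2.19 to 4.70). Deep astrocytes as a whole were close in number, at 15.1% of kept control barcodes (12.8 to 17.6) and 13.0% of kept MNPQ barcodes (10.8 to 15.4). These intervals, and all others given here, cover counting error only.

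Within the members, the level of Agt, a gene of the rule, was lower in the MNPQ library. The limit of 2 Agt UMIs admits deeper cells at a lower share of their UMIs, and the median MNPQ member was deeper. The part of this limit in the difference was not tested. The 80 control members held 836 Agt UMIs and the 28 MNPQ members held 306, which were 76.6% and 79.5% of all Agt UMIs in kept barcodes. Scaled to the UMIs of the members, this was 3098 and 2006 counts per 1000000 UMIs (CPM), a log2 ratio of MNPQ over control of -0.63 (95% interval -0.82 to -0.44). A control member had between 2 and 61 Agt UMIs with a median of 6.5, and an MNPQ member between 2 and 54 with a median of 6. Scaled to each cell's own UMIs, the lowest, median and highest values were 279.7, 2905 and 10976.5 CPM in the control and 206.5, 1572 and 9496 CPM in the MNPQ library. The ranges overlapped almost fully, and the median MNPQ cell lay below the median control cell. Members with 10 or more Agt UMIs numbered 30 in control and 10 in MNPQ cells. A single MNPQ cell held 17.6% of that library's member Agt UMIs.

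**Figure D1:**
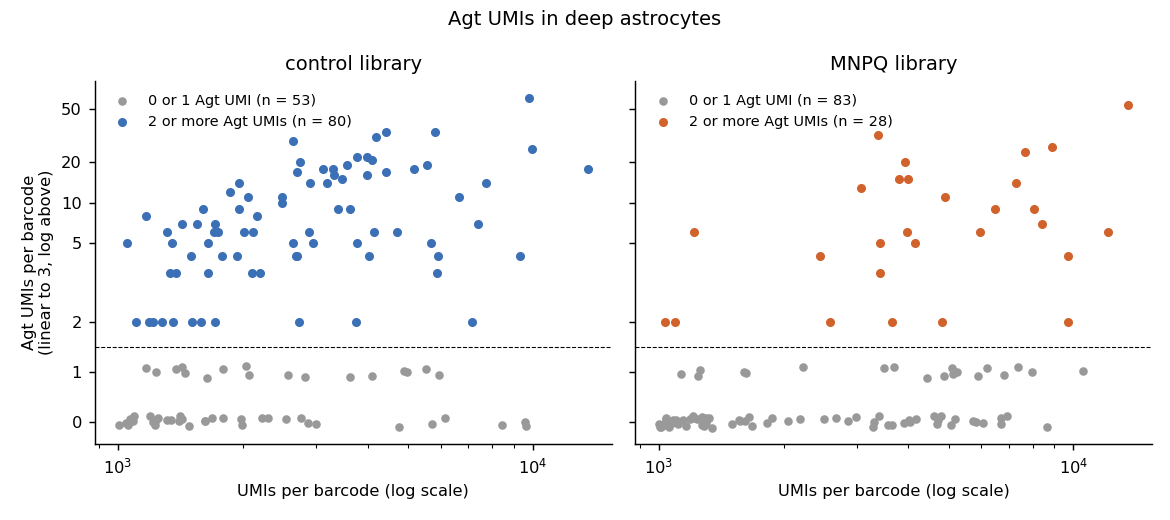
Agt UMIs per barcode (vertical axis, linear to 3 and logarithmic above) against total UMIs per barcode (horizontal log axis) for the deep astrocytes of each library. Points in colour are the 80 control and 28 MNPQ barcodes with 2 or more Agt UMIs, grey points the 53 and 83 barcodes with 0 or 1, spread slightly for view, and the dashed line marks the limit. Grey points lie at all depths in the MNPQ panel.

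The lower Agt of the MNPQ library was found at each depth. In barcodes of 1000 to below 2000 UMIs, 47.5% of 59 control astrocytes and 6.98% of 43 MNPQ astrocytes had 2 or more Agt UMIs. In those of 2000 to below 4000 UMIs the shares were 73.8% of 42 and 42.3% of 26, and from 4000 UMIs on they were 65.6% of 32 and 33.3% of 42. Astrocyte barcodes of 500 to below 1000 UMIs, too shallow to be members, gave 24.2% of 190 and 4.98% of 221. The MNPQ share lay below the control share in each of the 4 ranges. Agt CPM went the same way in each range, at 1562 and 333 in the shallowest, 1757 and 276 in the next, 2941 and 1438 in the third, and 1698 and 694 in the deepest. After every deep astrocyte was thinned to 1000 UMIs, 45.1% of those in the control (36.5 to 54.0) and 17.1% of those in the MNPQ library (10.6 to 25.4) had 2 or more Agt UMIs. With thinning, 60.9% (52.1 to 69.2) and 27.0% (19.0 to 36.3) had at least 1.

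**Figure D2:**
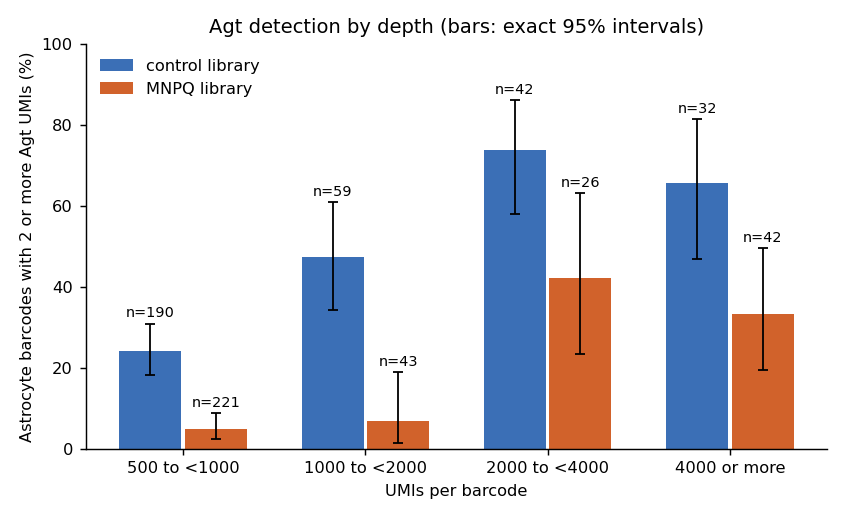
Percent of astrocyte barcodes with 2 or more Agt UMIs (vertical axis) by total UMIs per barcode (horizontal axis) in the control library and the MNPQ library. Bars start at 0, whiskers are exact 95% intervals for counting error and n is the number of astrocyte barcodes. The control bar is the higher one at each depth, with 47.5% against 6.98% from 1000 to below 2000 UMIs.

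Agt UMIs were also counted in other cell types, where free RNA, mixed barcodes and transcripts of the cells' own cannot be told apart. In barcodes of at least 1000 UMIs chosen by other markers, 7.06% of 85 control microglia and 1.59% of 63 MNPQ microglia had an Agt UMI (median depth 3223 and 3130 UMIs). The shares were 3.57% and 1.28% in oligodendrocytes (4600.5 and 5000 UMIs), 5.17% and 1.75% in endothelial cells (3360.5 and 3593), 5.56% and 2.44% in mural cells (3033 and 4084) and 4.55% and 3.45% in neurons (2407.5 and 1468). In deep astrocytes the shares were 72.9% and 42.3%, at median depths of 2196 and 3370 UMIs. Agt in both libraries thus lay far above the level in these other types. The share was higher in the control library in each of these 5 types, though on 1 to 6 barcodes with intervals that overlapped. That library also held more Agt in all, 1091 UMIs in kept barcodes against 385. The part of such UMIs in barcodes near the limit of 2 UMIs was not tested.

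Barcodes on either side of the limit of 2 UMIs are described here. In the control library 11 of 80 members had exactly 2 Agt UMIs, 6 had 3, and 17 deep astrocytes lay just outside with 1. In the MNPQ library 6 members had 2, 1 had 3, and 19 deep astrocytes had 1, against 28 members in all. With a limit of 1 UMI, the share of deep astrocytes was 72.9% and 42.3%. Itih3 stood at 1382 CPM in control members with 2 Agt UMIs and at 349 CPM in control cells with 1. In the MNPQ library the corresponding values were 306 and 140 CPM. Sparc stood at 1951 and 924 CPM in the control, and at 480 and 256 CPM in the MNPQ library. Slc6a11 stood at 1463 and 349 CPM in the control, and at 437 and 210 CPM in the MNPQ library. Not all genes that set the members apart changed in this way at the limit. Lhx2 stood at 203 CPM in control members with 2 Agt UMIs, 123 in control cells with 1 and 119 in those with 0, on 5, 6 and 11 UMIs, the reverse of its order over all members. In the MNPQ library it stood at 131, 210 and 185 CPM. Nkx6-2 stood at 122, 41.1 and 43.2 CPM in control cells, and at 43.7, 35.0 and 40.4 CPM in MNPQ cells, on 1 to 7 UMIs each.

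Astrocyte markers that the rule did and did not use are described here. Slc1a2, Gja1 and Aqp4 were in the rule, so their presence is no check of identity. All 80 control members and 27 of 28 MNPQ members had a UMI of Slc1a2, the main glutamate transporter gene. Gja1, the connexin 43 gene, was found in 77 and 27, and Aqp4, the endfoot water channel gene, in 60 and 26. Apoe, the lipid carrier gene, was not in the rule and was found in all 80 and all 28 members, at 47515 and 42752 CPM. Glul, the glutamine synthetase gene, was also not in the rule and was found in 75 and 27. Levels of Apoe and Glul in other cell types are not given here. Markers of other cell types differed by list. The neuron, microglia and mural lists stood at a median of 0 CPM per control member, and the neuron and mural lists at 0 and the microglia list at 122 in the MNPQ library. The oligodendrocyte list of 8 genes stood at 1234.4 and 1268.6 CPM in the median member, and the endothelial list of 10 genes at 754 and 710. Summed over the members, the endothelial list stood at 819 and 767 CPM, beside 756 and 695 for Aqp4 alone. A single gene, Bsg, held most of that list, with 179 of 221 UMIs in control and 97 of 117 in MNPQ members. In the deep astrocytes without Agt, the medians were 1281 and 1243 CPM for the oligodendrocyte list and 0 and 827 for the endothelial one. Members with 0.5% or more of their UMIs on the oligodendrocyte, mural, neuron, microglia or ependymal list numbered 6 in control and 3 in MNPQ cells.

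Within each library, the members were set against the deep astrocytes with 0 Agt UMIs. The members carried more of several genes known from astrocytes outside the telencephalon and of a homeodomain gene. Of 4 telencephalic genes with at least 20 UMIs in each library, only Sfrp5 was higher in the members in both libraries. Lhx2 (on few UMIs), Igfbp2 and, by little, Mfge8 were lower. Gria1 was higher but lay under that minimum in the MNPQ library. Of 2197 genes with at least 20 UMIs in each library over the classes compared, 39 (1.78%) were 2-fold or more higher in the members in both libraries and 25 (1.14%) were 2-fold or more lower in both. Taken alone, the control library had 212 genes (9.65%) 2-fold or more higher in the members and the MNPQ library 115 (5.23%). The classes differed in depth, with a median of 2708.5 against 1553 UMIs in the control and 4072 against 1664.5 in the MNPQ library. The part of depth in these differences was not tested, and values thinned to 1000 UMIs are given for the main genes.

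Itih3 had the largest control ratio of the non-telencephalic genes. It had 701 UMIs in control members and 18 in control cells without Agt, a log2 ratio of 3.74 (3.07 to 4.50), and 99 against 19 UMIs in the MNPQ library, a log2 ratio of 2.56 (1.85 to 3.36). At a fixed depth of 1000 UMIs, 78.8% of control members and 19.4% of control cells without Agt had an Itih3 UMI, as did 57.1% and 7.81% of the MNPQ cells. Thinned to that depth, the Itih3 log2 ratio was 3.09 in control and 3.56 in MNPQ cells. The higher share lay with the members in both libraries.

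Nkx6-2 had 115 UMIs in 37 control members against 4 in control cells without Agt (log2 ratio 3.30, 1.91 to 5.20), and 97 UMIs in 17 MNPQ members against 7 (3.98, 2.88 to 5.33). At 1000 UMIs per cell, 28.8% and 2.78% of control cells with and without Agt had a UMI of it, as did 32.1% and 3.13% of MNPQ cells. Sparc, a secreted matrix-binding protein gene, had 943 UMIs against 64 in the control (2.34, 1.97 to 2.73) and 239 against 38 in the MNPQ library (2.84, 2.34 to 3.37). One MNPQ member held 25.9% of the MNPQ Sparc UMIs. Cit, the citron kinase gene, had 58 UMIs against 2 in the control and 21 against 3 in the MNPQ library, log2 ratios of 3.32 and 2.99. Itih3, Nkx6-2, Sparc and Cit were all higher in the members of either library, with counting intervals above 0. These 4 genes have the largest shared ratios between classes that were cut on Agt. The intervals leave out the spread between cells, so this is a description and not a test.

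The remaining genes with the largest shared excess were Lrig1, a brake on growth factor receptors (2.07 and 2.30), Slc6a9, the glycine transporter 1 gene (2.04 and 1.99), Ddost, a glycosylation subunit (2.52 and 1.77), Mpp6, a membrane scaffold (1.95 and 1.69), Paqr6, a membrane receptor gene (2.47 and 1.65), Etnppl, a phosphoethanolamine-degrading enzyme (2.29 and 1.63), Ptch1, the hedgehog receptor (1.61 and 2.23), Fry (1.46 and 1.84) and Slc6a11, the GABA transporter 3 gene (1.45 and 2.16), each given as the log2 ratio in the control and then in the MNPQ library. Slc6a11 had the most UMIs among these, 365 against 46 in the control and 110 against 28 in the MNPQ library. Fry had 4 and 6 UMIs in the cells without Agt, and its control ratio was 0.17 after thinning. These genes, and the 5 most like Agt by the smaller of the ratios in the 2 libraries (Nkx6-2, Cit, Itih3, Lrig1 and Slc6a9), were taken among genes with at most 20% of either library's member UMIs in 1 cell. Sparc ranks 4 by that measure and was not among them for the cell with 25.9% of its MNPQ UMIs. Nnat, the neuronatin gene, ranks 11 (1.63 and 2.02), with 22.2% of its MNPQ UMIs in 1 cell.

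**Figure D3:**
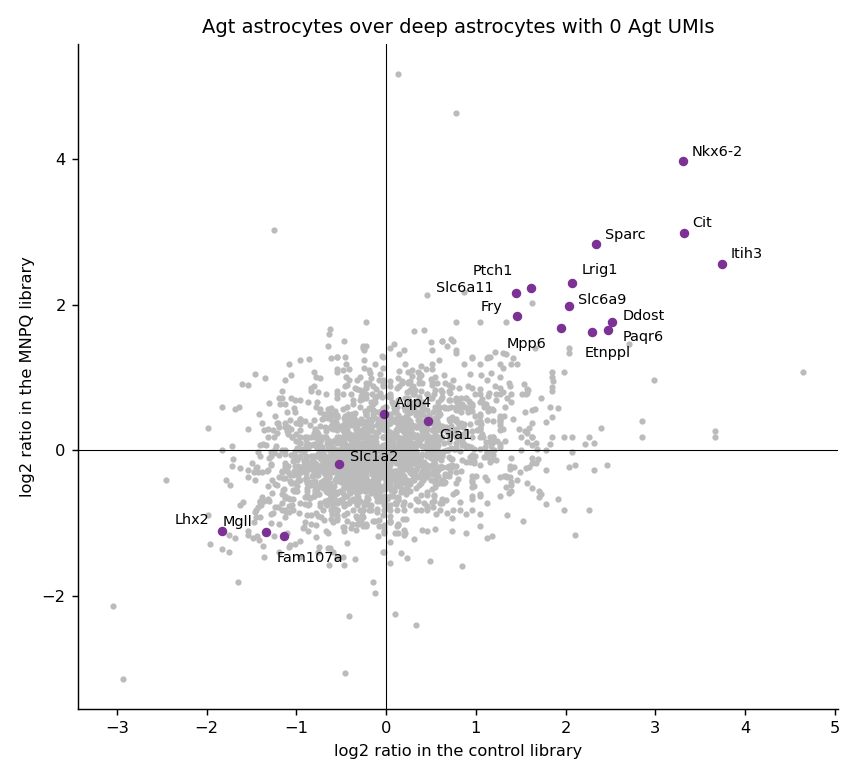
Log2 ratio of Agt astrocytes over deep astrocytes with 0 Agt UMIs in the control library (horizontal axis) and in the MNPQ library (vertical axis), with 1 point per gene for genes with UMIs in all 4 classes. Named genes are the highest by the rule and chosen markers. Itih3, Nkx6-2, Cit and Sparc lie at the upper right, Slc1a2, Gja1 and Aqp4 near the centre and Lhx2, Mgll and Fam107a at the lower left.

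The non-telencephalic list took a clear side. Of 4 measured telencephalic genes, 1 was higher in the members in both libraries, and Mfge8, the most abundant, was slightly lower (-0.11 and -0.19). All 7 other genes of the non-telencephalic astrocyte list were higher in the members in both libraries, with medians of 1.45 in control and 1.99 in MNPQ cells, and 4 of them were past 2-fold in both. Of all genes measured 26.1% were higher in both, and the medians were -0.10 and -0.05. The smallest differences of this list belonged to Gpr37l1, a receptor gene (0.70 and 0.11), Kcnj10, the potassium channel Kir4.1 gene (0.72 and 1.53), and Slc7a10, a serine and alanine transporter gene (1.35 and 0.72). Lhx2, a forebrain LIM homeodomain gene, was lower in the members, with 9 against 11 UMIs in the control (-1.83, -3.28 to -0.42) and 13 against 32 in the MNPQ library (-1.12, -2.17 to -0.15). The Lhx2 ratio in the MNPQ library was -0.39 after thinning and -0.51 when cells with 1 Agt UMI were taken as members. Igfbp2, an insulin-like growth factor binding protein gene, had 37 against 27 UMIs (-1.09) and 51 against 146 (-1.33). Not all telencephalic genes lay on that side. Gria1, a glutamate receptor subunit gene, had 59 UMIs against 0 in the control, at least 6.75-fold higher with a floor of 3 counts over the cells without Agt, and 11 against 3 in the MNPQ library (2.06). Sfrp5, a secreted Wnt inhibitor gene, had 73 against 1 and 13 against 7 UMIs. Its MNPQ ratio of 1.08 turned negative, to -0.39, after thinning.

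Genes lower in the members in both libraries included Mgll, the enzyme that degrades the endocannabinoid 2-AG, with 62 against 54 UMIs (-1.34) in the control and 47 against 116 (-1.12) in the MNPQ library. Fam107a, a stress-induced actin-binding gene, stood at -1.14 and -1.19. Btg1, an antiproliferative gene (-1.83 and -1.36), and Acot13, a thioesterase gene (-1.96 and -1.29), were lower as well. The other lowest genes were St6galnac5 (-1.19 and -1.40), Cpne2 (-1.07 and -1.30), Paxx (-1.01 and -1.29), Grcc10 (-1.28 and -0.996), Mrpl58 (-0.91 and -1.06), Ncoa4 (-1.28 and -0.88), Svbp (-1.54 and -1.16) and Tagln3 (-0.91 and -0.99). After thinning, Ncoa4 stood at 0.43 in the control and Svbp at 0.19 in the MNPQ library, so the direction of these 2 turned with thinning.

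Metabolic lists mostly lay on the lower side in the members, read against all 2197 genes, of which 44.1% in control and 46.4% in MNPQ cells were higher in the members. The members had higher values for 3 of 34 subunit genes of complexes III to V of the respiratory chain in the control library and for 4 in the MNPQ one, with medians of -0.30 and -0.27. For complex I the counts were 12 and 5 of 37 (-0.15 and -0.28), the control median lying near that of all genes, -0.10. The list of glycogen, glucose and lactate genes had 3 and 5 of 18 higher (-0.32 and -0.13), and that of metallothioneins and metal handling 1 and 2 of 6 (-0.69 and -0.24). Mt1, the most abundant metallothionein gene, had 1782 UMIs in control members and 1055 in control cells without Agt (-0.79), and 1587 against 2181 in the MNPQ library (-0.28). Prdx6, a peroxiredoxin gene, stood at -1.03 and -0.56. The general markers were closer to even, with Gja1 at 0.47 and 0.41, Aqp4 at -0.02 and 0.50, and Slc1a2 at -0.52 and -0.19. With a mitochondrial limit of 10%, Slc1a2 stood at 0.47 in the control library instead.

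Members differed among themselves in what they carried beside Agt. Igsf1, an immunoglobulin superfamily gene named after its values were seen, was present in 42 of 80 control and 8 of 28 MNPQ members, with 97 and 14 UMIs against 0 and 0 in the cells without Agt. All 37 control members with Nkx6-2 also had Itih3, as did 15 of the 17 MNPQ members with Nkx6-2. Most members had Itih3 in any case, 70 of 80 in the control and 20 of 28 in the MNPQ library. Members with Nkx6-2 had a median of 11 Agt UMIs in control and 13 in MNPQ cells, against 5 and 3 in members without it. Their median depth was 3305 against 2486 UMIs in the control and 3972 against 4832 in the MNPQ library. Agt CPM per cell was higher with Nkx6-2 in both, at medians of 3704 against 1821 and 2933 against 877. Foxb1, a transcription factor gene of the hypothalamus and thalamus, was found in 12 control members, all with Itih3, and in 1 MNPQ member.

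Forebrain genes were found in some members, in part the same ones that had Nkx6-2. Lhx2 was found in 4 of 80 control and 9 of 28 MNPQ members. Igfbp2 was found in 5 and 6, of which 1 and 0 also had Nkx6-2. Lhx2 and Nkx6-2 were not exclusive, since 1 control and 5 MNPQ members had both. Median Agt CPM per cell was 729 in control members with Lhx2 against 3223 in those without it, and 1122 against 1928 in the MNPQ library. The Lhx2 members were the deeper ones, with medians of 6523.5 against 2666.5 UMIs in the control and 6484 against 3972 in the MNPQ library.

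Across cells, the share of UMIs on Agt went with that on Itih3 with a Spearman correlation of 0.44 over 80 control members and 0.54 over 28 MNPQ members. For Sparc it was 0.49 and 0.52, for Nkx6-2 0.28 and 0.70, for Slc6a11 0.23 and 0.23, and for Slc1a2 -0.30 and 0.17. Total UMIs had correlations of -0.12 and -0.33 with the Agt share. Cells of a library share its depth range, dissection and any free RNA, and many of these values rest on few UMIs, so the correlations are descriptions.

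**Figure D4:**
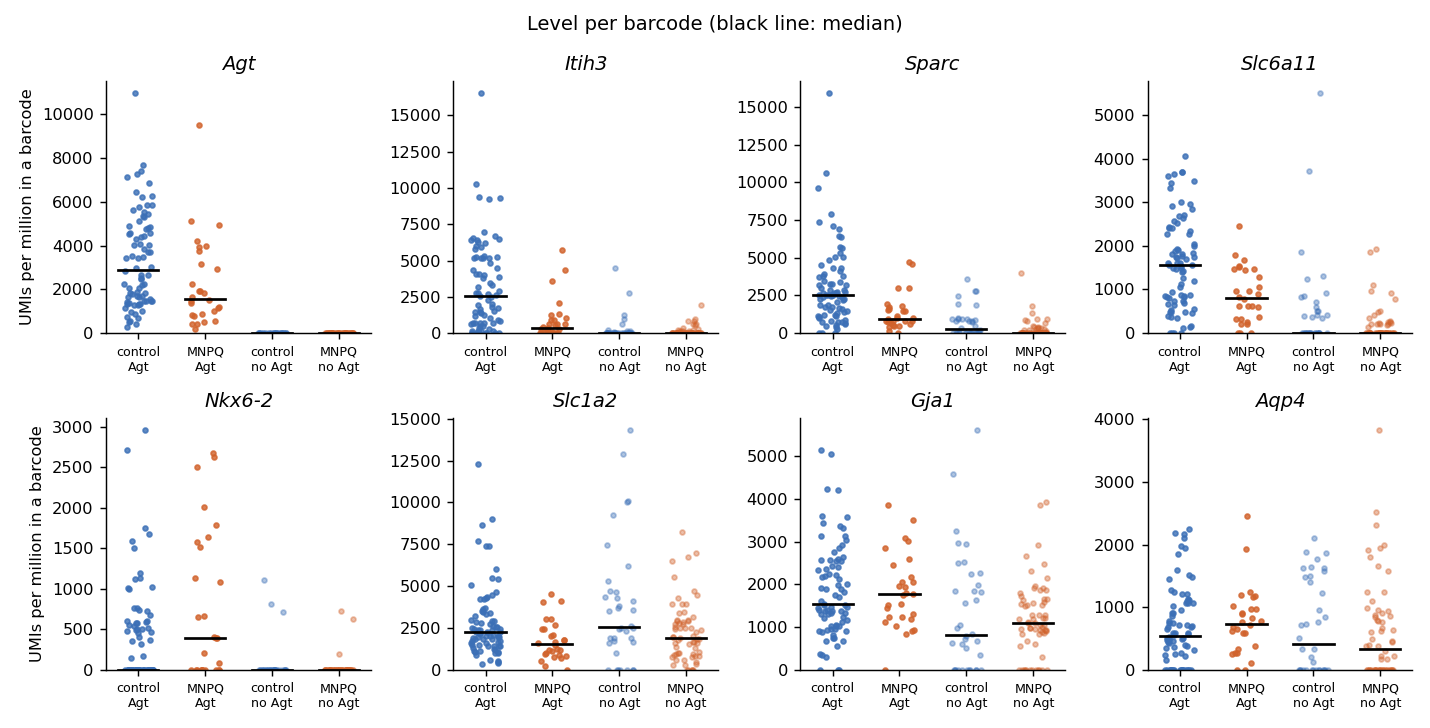
CPM in each barcode (vertical axes, linear and separate per gene) for 8 genes in 4 classes: control and MNPQ Agt astrocytes, and control and MNPQ deep astrocytes with 0 Agt UMIs. Points are barcodes and black lines medians. Itih3 has medians of 2525 and 371 in the Agt astrocytes of the control and MNPQ libraries, while the Gja1 medians, 1532 and 1767, lie close together.

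Other parts of the renin-angiotensin system were largely undetected in these cells. Renin (Ren1), the receptor genes Agtr1a, Agtr1b, Agtr2 and Mas1 and the peptidase genes Enpep and Mme had 0 UMIs in 80 control and 28 MNPQ members, which allows a share of cells with a UMI of up to 3.75% and 10.7%. Ace, the angiotensin-converting enzyme gene, had 1 and 0 UMIs. The genes of this list with the most UMIs beside Agt were Ctsd, a lysosomal protease gene (175 and 78 UMIs), and Atp6ap2, the prorenin receptor and proton pump subunit gene (69 and 26). Peptidase genes had few: Lnpep, which encodes the angiotensin IV-binding aminopeptidase (11 and 4), Rnpep, aminopeptidase B (11 and 6), Nln, neurolysin (7 and 4), Prcp, prolylcarboxypeptidase (2 and 7), Thop1, thimet oligopeptidase (3 and 1), Prep, prolyl endopeptidase (0 and 2) and Anpep, aminopeptidase N (0 and 1). Agtrap, which encodes a protein that binds the angiotensin receptor, had 3 and 6. Enpep was instead found in mural barcodes, which held 23 of 24 UMIs in the control and 32 of 33 in the other library. The Ace UMIs lay mainly in endothelial barcodes, 7 of 9 and 10 of 10.

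Between the libraries, the members of the MNPQ library carried less Itih3, Sparc, Slc6a11 and Agt. They carried more of many nuclear genes of the respiratory chain and of several metallothionein and Id genes. The measured mitochondrially encoded genes were all lower. Among 1582 genes with at least 40 UMIs over the members of both libraries, 119 (7.52%) were past 2-fold, 64 higher (4.05%) and 55 lower (3.48%) in the MNPQ library. More genes lay above 0 than below, 61.3% of them, with a median log2 ratio of 0.16, by which every ratio drops when the libraries are scaled to a median of 0. Over the 3152 genes with at least 20 UMIs, against which the lists below are set, the median was 0.12. In the deep astrocytes without Agt, 83 of 975 genes (8.51%) were past 2-fold and the median was 0.15.

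Itih3 had 701 UMIs in 70 of 80 control members and 99 in 20 of 28 MNPQ members, 2597 and 649 CPM, a log2 ratio of -2.001 (-2.32 to -1.70). In the deep astrocytes without Agt, Itih3 stood at 18 and 19 UMIs, a log2 ratio of -0.82. Its median per member was 2525 CPM of its own UMIs in the control (0 to 16545) and 371 in the MNPQ library (0 to 5747). Cells of both libraries ranged down to 0, and the highest MNPQ cell stayed well below the highest control cell. At 1000 UMIs per cell the ratio was -1.36. Sparc was lower as well, at 3494 and 1566 CPM (-1.16, -1.37 to -0.95), and Slc6a11 at 1352 and 721 CPM (-0.91, -1.23 to -0.60). Both were also lower in the cells without Agt, with ratios of -1.66 for Sparc and -1.62 for Slc6a11. Whether a ratio differed between cells with and without Agt was not tested for any gene.

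Nkx6-2, from the list of regional transcription factors, went the other way, with 426 CPM in control and 636 in MNPQ cells (0.58, 0.17 to 0.98). The list of non-telencephalic genes had 5 of 8 genes lower in the MNPQ members, with a median of -0.45. Agt, a gene of the rule, was 1 of these 5 (-0.63) and enters that median. The rest of the 5 were Itih3, Sparc, Slc6a11 and Slc6a9 (-0.28). The other 3, Slc7a10 (934 and 950 CPM, 0.03), Kcnj10 (178 and 184, 0.05) and Gpr37l1 (2397 and 2491, 0.06), had intervals that spanned 0 and lay under the median of all genes, 0.12, so no gene of the list stood above it. Of the telencephalic genes, Igfbp2 was higher at 137 and 334 CPM (1.29, 0.65 to 1.94) and Sfrp5 lower at 271 and 85.2 (-1.67, -2.64 to -0.80). With an astrocyte gene share of at least 2%, the Igfbp2 ratio was 0.25. The 6 regional transcription factor genes with at least 20 UMIs were all higher in the MNPQ members, with a median of 0.93. Dbx2, a homeodomain gene, had 68 and 74 UMIs (0.94, 0.45 to 1.44). Its ratio in the cells without Agt was 1.39.

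The general astrocyte genes differed by less than 2-fold, some of them beyond counting error. Aldoc, Clu, Slc1a2, Slc1a3, Gja1, Ntsr2, Acsbg1, Aqp4 and Slc4a4 were rule genes, whose summed share was required in both libraries. Of 22 astrocyte identity genes, 7 were higher in the MNPQ members and 15 lower, none of them 2-fold, with a median of -0.08. Gja1 stood at 1630 and 1586 CPM (-0.04, -0.27 to 0.19) and Aqp4 at 756 and 695 (-0.12, -0.47 to 0.22), differences within counting error. Slc1a2 was lower at 3242 and 1888 CPM (-0.78, -0.98 to -0.59), as was Slc1a3, the other glutamate transporter gene, at 2305 and 1586 (-0.54, -0.76 to -0.32). In cells without Agt, Slc1a2 stood at -1.11 and Slc1a3 at -0.44. Glul was higher at 2512 and 3100 CPM (0.30, 0.13 to 0.47). Sox9, a glial transcription factor gene, was lower at 263 and 151 CPM (-0.80, -1.55 to -0.11). Slc4a4, the sodium bicarbonate cotransporter gene, was lower at 774 and 465 CPM (-0.73, -1.14 to -0.34), but its ratio was 0.00 after thinning.

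**Figure D5:**
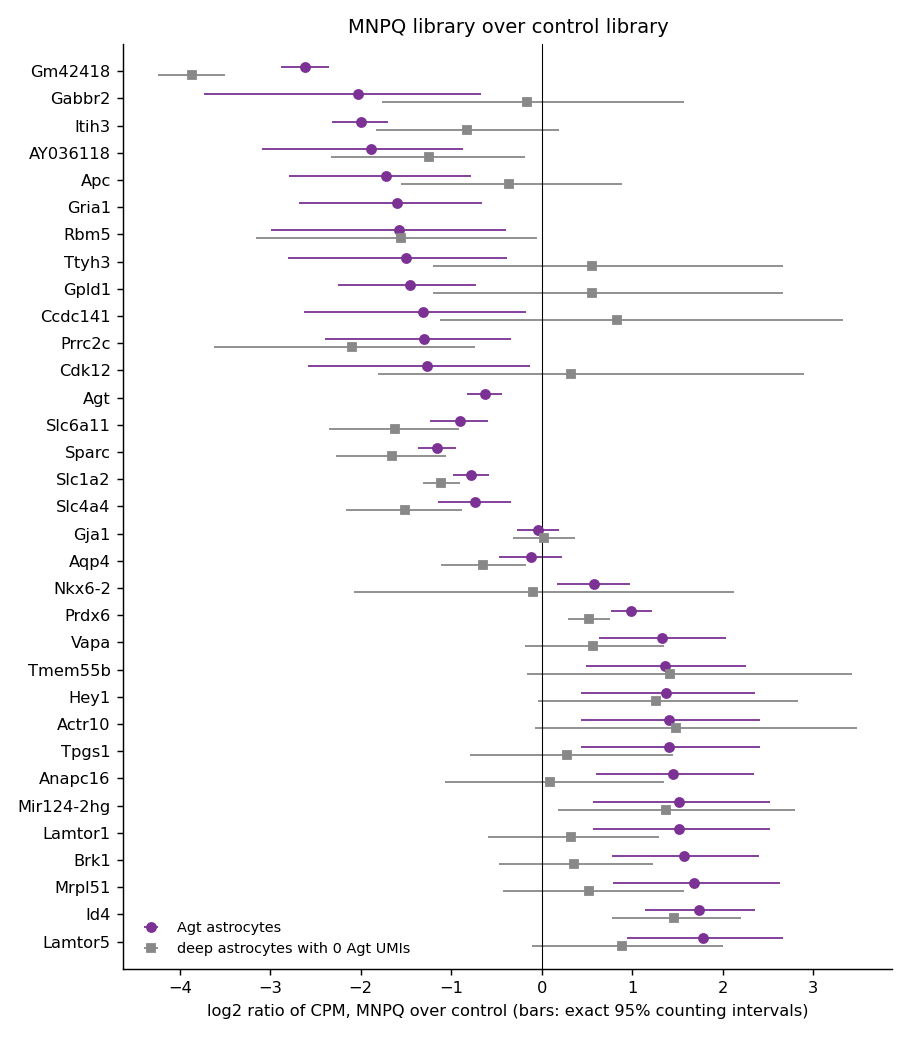
Log2 ratio of CPM in the MNPQ library over the control library (horizontal axis) for the 12 lowest and 12 highest genes by the rule and chosen markers, in Agt astrocytes (circles) and in deep astrocytes with 0 Agt UMIs (squares). Bars are exact 95% counting intervals. Itih3 lies at -2.001 in Agt astrocytes and at -0.82 in cells without Agt, while Id4 lies near 1.5 or above in both. A square is missing where a gene had no UMI in a class.

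The lowest ratios of MNPQ over control, beside Itih3, began with Gm42418, a noncoding locus that overlaps ribosomal RNA sequence, at 1437 and 133 UMIs (-2.61, -2.88 to -2.35). In the cells without Agt it stood at -3.86, so the cells without Agt showed this difference too. AY036118, from the same kind of locus, stood at -1.89. Next to these came Gabbr2, a GABA-B receptor subunit gene, at 36 and 5 UMIs (-2.03, -3.73 to -0.67), against -0.17 in the cells without Agt, Gria1 at 59 and 11 (-1.60, -2.68 to -0.66), and Gpld1, a phospholipase gene that cleaves lipid anchors, at 92 and 19 (-1.45, -2.25 to -0.73). The others of this set were Apc (-1.72), Rbm5 (-1.58), Ttyh3 (-1.499), Ccdc141 (-1.31), Prrc2c (-1.30) and Cdk12 (-1.26). Ttyh3 and Gpld1 stood at -0.60 after thinning. Gria1, Gpld1 and Itih3 were also higher in control members than in control cells without Agt.

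Among the genes ranked with that limit, the highest ratios belonged to genes of modest counts. Trf and Vtn, higher still but left out by the limit, are given below. Id4, a helix-loop-helix repressor gene of glial cells, had 37 UMIs in 20 control members and 70 in 19 MNPQ members, 137 and 459 CPM (1.74, 1.15 to 2.36). Its ratio in the cells without Agt was 1.46. Hey1, a Notch target gene, stood at 1.38 (0.43 to 2.36), against 1.27 in the cells without Agt. Lamtor5 and Lamtor1, subunits of the lysosomal Ragulator complex, stood at 1.78 and 1.52, from 19 and 37 and from 16 and 26 UMIs. The others were Mrpl51 (1.69), Brk1 (1.57), Mir124-2hg (1.52), Anapc16 (1.46), Tpgs1 (1.41), Actr10 (1.41), Tmem55b (1.36) and Vapa (1.33). After thinning, Tpgs1 stood at 0.19 and Tmem55b at -0.66, the latter on 11 UMIs.

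Mitochondrial genes split by where they are encoded. Each of the 34 measured nuclear genes for subunits of complexes III to V was higher in the MNPQ members, with a median of 0.50, and 32 of 37 for complex I, with a median of 0.39, against 57.7% of all genes at that minimum. Cox7b, a subunit gene of complex IV, stood at 204 and 426 CPM (1.06, 0.52 to 1.61), and Cox4i1, the most abundant of its list, at 1286 and 1645 (0.36, 0.12 to 0.59). None of the 11 mitochondrially encoded genes was higher, and their median was -0.30. Among them mt-Atp6 stood at 15061 and 12957 CPM (-0.22, -0.30 to -0.14) and mt-Nd5 at 548 and 328 (-0.74, -1.24 to -0.27). With the mitochondrial share limited to 10%, that median was -0.09. The rule itself limits the mitochondrial share, and the members' median share was lower in the MNPQ library. Over the cells without Agt, the members' medians in control and MNPQ were -0.30 and -0.27 for complexes III to V. For complex I they were -0.15 and -0.28, and for the mitochondrially encoded genes -0.12 and -0.21. Whether these differences between the libraries were particular to the members was not tested.

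Defence against metals and oxidants was read from further lists. Of 8 metallothionein and metal handling genes 6 were higher in the MNPQ members, with a median of 0.68. Mt1 stood at 6603 and 10401 CPM (0.66, 0.56 to 0.75), Mt2 at 1841 and 3002 (0.70, 0.52 to 0.89), and Ftl1, the ferritin light chain gene, at 537 and 1016 (0.92, 0.58 to 1.26). In the cells without Agt, Mt1 stood at 0.15 and Ftl1 at 0.22. For Mt2 the members lay below those cells by similar log2 ratios, -0.36 among control barcodes and -0.29 among MNPQ barcodes. The Mt2 ratio of MNPQ over control was therefore of similar size with and without Agt. The antioxidant and glutathione list had 15 of 21 genes higher and a median of 0.36. Prdx6 had 305 and 343 UMIs, 1130 and 2248 CPM (0.99, 0.77 to 1.22), and Gstm1, a glutathione transferase gene, stood at 2019 and 2838 CPM (0.49, 0.31 to 0.68). Prdx4, the peroxiredoxin of the endoplasmic reticulum, was lower with 64 and 8 UMIs (-2.18, -3.45 to -1.11). Of 9 genes handling monoamines and toxicants 6 were higher (median 0.29), of 17 heat shock and endoplasmic reticulum stress genes 10 (0.06, below the median of all genes), and of 8 glucocorticoid-responsive genes 6 (0.30).

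Energy and lipid genes were mixed. Of 19 genes of glycogen, glucose and lactate handling 13 were higher (median 0.37), among them Gpi1, the phosphoglucose isomerase gene, at 230 and 472 CPM (1.04, 0.53 to 1.55), while Aldoc, the astrocyte aldolase gene, stood at 6377 and 8245 (0.37, 0.26 to 0.48). Of 28 lipid and cholesterol genes 13 were higher (median -0.02), from Fdps, a cholesterol synthesis gene, with 21 and 37 UMIs (1.64, 0.83 to 2.49), to Cyp2j9, a cytochrome P450 gene, with 99 and 25 (-1.16, -1.86 to -0.52). Apoe stood at -0.15 (-0.20 to -0.11).

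Signalling and transport lists leaned lower. Of 13 glutamate, GABA and glycine handling genes 6 were higher (median -0.27), the lowest being Abat, the GABA transaminase gene, with 57 and 8 UMIs (-2.01, -3.29 to -0.94). With an astrocyte gene share of at least 2% that median was 0.00. Of 19 ion, water and junction genes 8 were higher (-0.06), of 22 receptor and signalling genes 7 (-0.14), and of 22 secreted and matrix genes 6 (-0.20). Of 5 reactive astrocyte genes 1 was higher (-0.44). Gfap, the intermediate filament gene of reactive astrocytes, had 102 UMIs in 20 control members and 55 in 11 MNPQ members (-0.07, -0.57 to 0.42), and 1 MNPQ member held 52.7% of the latter. Of 18 helix-loop-helix and glial transcription factor genes 11 were higher (median 0.35), though the median was -0.01 with an astrocyte gene share of at least 2%. All 3 measured immediate early genes were higher. The 3 measured renin-angiotensin genes, Agt, Ctsd and Atp6ap2, were lower, the last 2 with intervals that spanned 0.

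Transcripts of other cell types also differed between the members of the libraries. The oligodendrocyte list made up 403 UMIs in control members and 657 in MNPQ members, 1493 and 4306 CPM, while the median per member was 1234.4 and 1268.6 CPM. One MNPQ barcode of 9686 UMIs, with 2 Agt UMIs, held 419 of the 657. The median ratio over the 6 measured genes of that list was 2.29, and all 6 lay above 0. Trf, the transferrin gene that oligodendrocytes express, had 6 and 43 UMIs (3.66), of which that barcode held 97.7%, and its ratio was -1.67 without the doublets called by Scrublet. Another MNPQ barcode, of 8018 UMIs, held all 62 UMIs of Vtn, a mural marker. The values of Trf, Ptgds and Vtn therefore rest on 2 barcodes, and without all deep astrocytes with 0.5% or more of their UMIs on such a list, with or without Agt, the share of Agt astrocytes was 61.2% of 121 control and 26.0% of 96 MNPQ barcodes.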

How the data were processed

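Single-cell RNA was measured in 2 droplet libraries of mouse brain tissue, 1 control and 1 MNPQ. The authors deposited counts, whole numbers of UMIs per gene and barcode, produced by Cell Ranger 3.0.2, per the file headers, with the genome build mm10, per the submitters' processing notes. How barcodes were called is not given in the sources used here. Of 31053 gene identifiers 30934 were found in GENCODE M21.

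Members were taken by the stated rule from raw counts, and the 2 libraries were not integrated. UMIs were summed over the members of a library and scaled to their total (CPM). Log2 ratios have exact conditional binomial 95% intervals, shares have Clopper-Pearson intervals, and a count of 0 was given a limit of 3 counts. With 1 library per group no test was made. The members, the 22 gene lists and the 12 marker lists were chosen with earlier results of these data known. A list was summarised over genes with at least 20 UMIs over both libraries' members, where 5 or more were measured.

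Genes named between libraries were the 12 highest and 12 lowest log2 ratios among genes with at least 40 UMIs, at least 5 in each library and at most 20% of a library's UMIs in 1 cell (1295 genes). Against the cells without Agt, they were the 12 highest and 12 lowest by the smaller ratio of both libraries, among genes with at least 20 UMIs in each library and the same limit of 20% in 1 cell (1621 genes). The regional lists, the renin-angiotensin genes, the markers and the highest, lowest and most abundant gene of a list were added, and some named genes are not reported here.

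Doublets were kept. Scrublet (scanpy 1.11.5) called 9 of 882 control and 6 of 854 MNPQ barcodes, of which 0 and 1 were members, and an alternative leaves them out. Analyses used Python 3.11.15, numpy 2.4.6, scipy 1.17.1, pandas 2.3.3 and matplotlib 3.10.9, and the ratio script was tested on simulated data.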

Additional observations from a re-analysis of the deposited data

Results flagged for a closer look

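Dbi, which encodes the acyl-CoA and benzodiazepine receptor binding protein, lay on opposite sides of 0 in deep astrocytes with and without Agt. In Agt astrocytes its log2 ratio of MNPQ over control was 0.27 (95% counting interval 0.14 to 0.40), from 1129 and 770 UMIs. In deep astrocytes with 0 Agt UMIs it was -0.66, from 431 and 511 UMIs. With 1 library per group, this difference was not tested.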

How the results depend on the processing

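No paired analysis was possible because the groups share fewer than 2 replicate numbers, with 1 library each. One group of alternatives, leaving out deep astrocytes mixed with other markers, was chosen after seeing the data. The MNPQ share of Agt astrocytes lay below the control share under every alternative run, with values of 72.9% and 42.3% when 1 Agt UMI sufficed, 70.3% and 36.8% from 2000 UMIs on, and 45.1% and 17.1% after thinning to 1000 UMIs.

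Counts of genes past 2-fold depended on the settings. For genes higher in MNPQ members (64) they were 120 with at least 1 Agt UMI, 25 with an astrocyte gene share of at least 2%, 126 with each cell weighted equally, 26 thinned, 39 scaled to a median of 0, and 233, 11 and 1346 with minimums of 20 UMIs, 100 UMIs and 1 UMI in each library. For genes lower (55) they were 33 from 2000 UMIs on, 27 at 2%, 14 thinned, and 189, 9 and 1088 with those minimums. Thinning left 308 genes at the minimum. Against the cells without Agt, genes higher in both libraries (39) were 17 at 2%, 78 weighted equally, 12 thinned and 15 with 40 UMIs per library, and genes lower (25) were 10 with at least 1 Agt UMI, 14 at 2%, 42 weighted equally and 7 with 40 UMIs.

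Of the gene ratios between libraries under the alternatives, 4480 stayed within their main counting interval, 243 left it and 5 changed sign from a value past 2-fold. Of the ratios over the cells without Agt, 8304 stayed, 421 left and 14 changed sign. Of the list medians, 13 moved and 1 changed sign, the helix-loop-helix list at -0.014 with a share of at least 2%. Between libraries, Trf stood at -1.40 with at least 3 Agt UMIs, -1.54 at 2%, -1.68 with astrocyte genes at least 5 times the other markers and -1.67 without Scrublet doublets. Tmem55b stood at -0.66 when thinned. Over the cells without Agt in the MNPQ library, Ptgds stood at -0.0854 with at least 3 Agt UMIs, -0.0855 at 2%, -0.19 at 5 times and -0.18 without Scrublet doublets. Each of these settings for Trf and Ptgds leaves out the barcode of 9686 UMIs. Sfrp5 stood at -0.31 at 2% and -0.39 thinned, and Svbp at 0.19 thinned. In the control library Hsp90aa1 stood at 0.17 and Pltp at 1.94 at 2%, Pltp at 0.38 weighted equally, Hsp90aa1 at 0.23 and Pltp at 1.85 without the mixed deep astrocytes, and Ncoa4 at 0.43 and Tpgs1 at 0.17 thinned. For those the cause was not tested. Thinning cuts most genes to a few UMIs, and depth limits any gene under about 40 UMIs.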

Other observations

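Genes of the hedgehog pathway, in which Ptch1 is the receptor that holds back Smo and Gli1 is a target transcription factor gene, were looked at after the values of Ptch1 were seen. Ptch1 had 98 UMIs in 51 control members and 29 in 15 MNPQ members, against 11 and 7 UMIs in the deep astrocytes without Agt. Smo had 23 and 3 UMIs in the members and 2 and 2 in the cells without Agt, and Gli1 had 14 and 1 against 1 and 1. Hhip, which binds hedgehog ligands, had 4 and 5 UMIs against 0 and 0. Ptch1 stood at 363 CPM in control members and 190 in MNPQ members, a log2 ratio of -0.93 (-1.58 to -0.32), and at -0.21 after thinning. At 1000 UMIs per cell, 33.8% of members of the control library and 32.1% of those of the MNPQ library had a Ptch1 UMI.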
